A study of Homo sapiens with 12 samples.

Results

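MET, HGF, CXCR4 and CXCL12 encode 2 receptors of cell motility and their ligands. They were taken from the arrays as the gene probes named for these 4 of the array's 30238 gene names, which gave 10 of 41000 probes: 3 for MET, 3 for HGF, 1 for CXCR4 and 3 for CXCL12. The arrays compared cultures of Rh30, a human alveolar rhabdomyosarcoma (ARMS) cell line that carries the PAX3-FKHR fusion: parental cells (WT), a clone with a non-targeting shRNA (CON) and a clone with an shRNA against PAX3-FKHR (KD1). CON and KD1 were kept in puromycin at 1 μg/mL and WT was not, and cells were grown for 24 h before RNA was taken. KD1 and CON are each a single clone, so effects of the shRNA and of the clone cannot be told apart. In comparisons with WT, puromycin and the shRNA vector cannot be told apart from them either. Each culture gave 2 replicate RNA samples, and KD1 vs CON, KD1 vs WT and WT vs CON were each hybridized in both replicates as a dye-swap pair, so that 6 RNA samples fill 12 arrays and each is on 4 of them. Nothing states that the replicates came from separate cultures beyond their being called biological replicates. The p-values and intervals use the spread between replicates, pooled over the 3 comparisons and moderated by that of all tested probes. The SD beside a mean is that of its own 2 replicates.

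MET is a receptor tyrosine kinase, and HGF, which is secreted as an inactive precursor and cleaved by serine proteases, is its ligand. CXCR4 is a G protein-coupled receptor that is activated by the chemokine CXCL12. In the embryo, both receptors guide muscle precursor cells that leave the somites for the limbs, and MET transcription there depends on PAX3. Both receptors have been studied in rhabdomyosarcoma as mediators of migration toward HGF and CXCL12.

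The probe sequences are printed to show which part of each transcript a value reads. Positions are those of the deposited annotation on build NCBI36, and no gene annotation of that build was used here to assign exons or UTRs. One MET probe is given whole, with its only reading frame free of stop codons in capitals, and the others as their first 30 bases, all 5′ to 3′.
MET A_23_P145846, chr7:116223309-116223368, plus strand: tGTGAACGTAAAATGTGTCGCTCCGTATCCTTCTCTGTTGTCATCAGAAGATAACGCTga
MET A_23_P359245, chr7:116225526-116225585, plus strand: gtgtctggacagattgtgggagtaagtgat
CXCR4 A_23_P102000, chr2:136588423-136588482, minus strand: tgctggtttttcagttttcaggagtgggtt
HGF A_23_P93780, chr7:81210011-81210070, minus strand: tcgctgtctttgtacccagcctgcattctg
CXCL12 A_23_P202448, chr10:44192894-44192953, minus strand: gtgacatttccatgcataaatgcgatccac
MET A_23_P359245 starts 2217 bases downstream of A_23_P145846, and the third MET probe, A_23_P145844, starts 121 bases downstream of it. HGF A_23_P93787 spans 4986 bases of the genome and so crosses at least one intron. MET A_23_P359245, HGF A_23_P93787, CXCR4 A_23_P102000 and CXCL12 A_23_P202448 were each spotted 10 times per array, and the other 6 probes once.

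Rh30 expressed both receptors, and neither ligand gave more than a weak signal. The values below are processed signals, the linear intensity after background subtraction and dye normalization, and levels are compared only between samples of one probe. CXCR4 was well above background in 24 of 24 channels, at 7827 to 41629, and MET A_23_P359245 in 24 of 24 channels, at 10693 to 30652. The ligand CXCL12 was well above background in 23 of 24 channels with A_23_P202448, but at 21.5 to 52.2. HGF was well above background in 22 of 24 channels with A_23_P93780, at 15.8 to 42.3. For scale, the weakest probe that still counted as well above background had a Cy3 signal of 8.96 to 12.9, or a Cy5 signal of 16.2 to 22.5, depending on the array. The remaining HGF probes (A_24_P944788, A_23_P93787) and CXCL12 probes (A_24_P944054, A_24_P412156) were not well above background in any of 24 channels, and no fold is given for them. In the deposited annotation, A_23_P93780 and A_23_P93787 have the same target transcript and A_24_P944788 another. The CXCL12 probes all differ in target. Which transcripts gave the weak ligand signals is therefore not resolved.

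**Figure D1:**
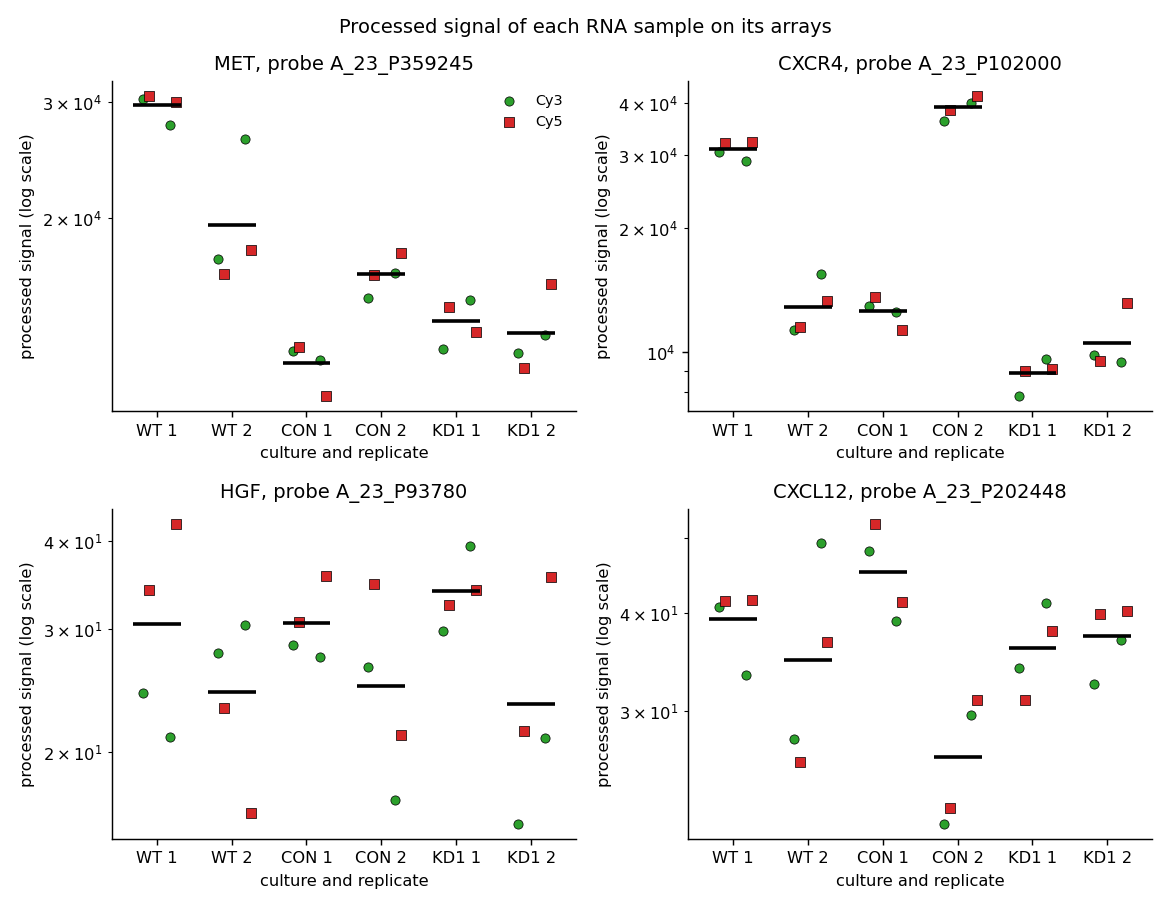
Processed signal (log scale) of the brightest MET, CXCR4, HGF and CXCL12 probe for each culture and replicate. Circles are Cy3 and squares Cy5 channels of the 4 arrays of an RNA sample, and bars are their means; CXCR4 stood high in WT replicate 1 and CON replicate 2, and no HGF or CXCL12 channel was above 52.2.

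All 8 KD1 arrays gave a lower CXCR4 signal for KD1 than for the culture it shared the array with, but by very different amounts in the replicates. Its mean processed signal over 4 arrays was 8897 and 10493 in the KD1 samples, 12575 and 39105 in the CON samples, and 30935 and 12877 in the WT samples (replicates 1 and 2). KD1 was the lowest culture in both replicates, whereas WT was highest in replicate 1 and CON in replicate 2. The highest sample, CON replicate 2, was 4.40-fold above the lowest, KD1 replicate 1.

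On the log2 scale, CXCR4 in KD1 vs CON was -0.47 and -0.53 on the arrays of replicate 1 and -2.07 and -2.08 on those of replicate 2. In KD1 vs WT it was -1.67 and -1.74 in replicate 1 and -0.23 and -0.49 in replicate 2. The dye-swapped arrays of an RNA pair therefore gave nearly the same value, and the replicates did not. The mean was -1.29 ± 1.11 (SD, n = 2) in KD1 vs CON, with a 95% interval of -2.63 to 0.06 (limma, adjusted p = 0.309), and -1.03 ± 0.95 (SD, n = 2) in KD1 vs WT, with an interval of -2.41 to 0.34 (limma, adjusted p = 0.418). Both intervals include 0, and neither difference passed the threshold of 0.05. In bulk RNA, fewer CXCR4-expressing cells and less CXCR4 RNA per cell cannot be told apart.

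In WT vs CON, CXCR4 went in opposite directions in the replicates. It was 1.31 and 1.17 in replicate 1 and -1.66 and -1.76 in replicate 2, with a mean of -0.23 ± 2.09 (SD, n = 2; limma, adjusted p = 0.886). The same difference reached through KD1, as KD1 vs CON minus KD1 vs WT on other slides, was 1.20 in replicate 1 and -1.71 in replicate 2, beside direct values of 1.24 and -1.71. The gap of 2.95 between the replicates was matched or exceeded by 33 of 26595 tested probes, or 0.124%, where the median gap was 0.35. Of 660 probes at least 2-fold different in both replicates, 34 had opposite directions. Whether the WT and CON samples of the replicates differ in culture state, RNA or labeling was not tested.

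**Figure D2:**
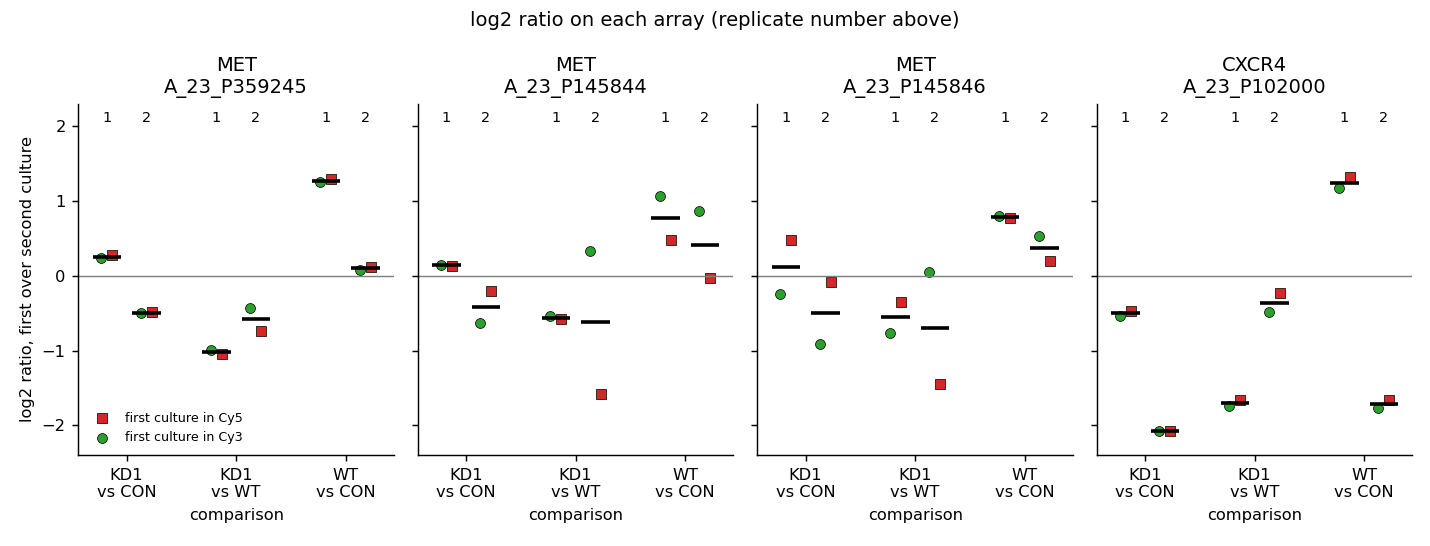
log2 ratio of the first over the second culture on each array for the 3 MET probes and CXCR4, by comparison and replicate (numbers above). Squares have the first culture in Cy5 and circles in Cy3, and bars are replicate means; CXCR4 was below 0 on all KD1 arrays and changed sign between the WT vs CON replicates.

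**Figure D3:**
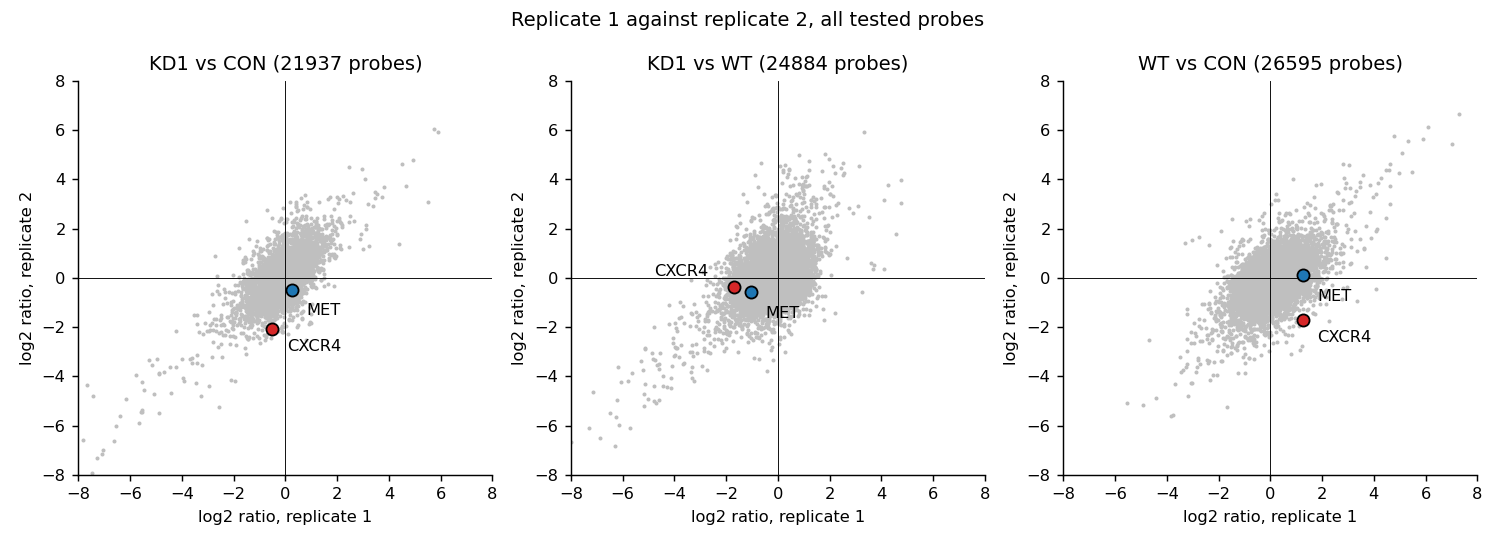
log2 ratio of replicate 1 (horizontal) against replicate 2 (vertical) for all tested probes of each comparison in grey, with CXCR4 and MET A_23_P359245 marked. In WT vs CON, CXCR4 lay at 1.24 and -1.71, in the lower right quadrant.

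A rule modeled on the methods asked for a 2-fold mean difference against both CON and WT, one direction on every KD1 array and a signal above the negative controls. It is a reading of those criteria, and the genes that met it here are not the study's own gene list. CXCR4 met it as a gene lower in KD1, and MET, HGF and CXCL12 did not. The study's own list of genes lower in KD1 does not hold CXCR4. Of 15718 genes above the negative controls, 159, or 1.01%, met it as lower. Of 21882 probes above the negative controls on all 8 KD1 arrays, 8.36% were below 0 on all 8. With either replicate left out, CXCR4 no longer met this rule, because KD1 vs WT in replicate 2 and KD1 vs CON in replicate 1 were under 2-fold.

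By replicate means, MET was lower in KD1 than in WT with every probe, and was no lower than in CON in replicate 1. The mean processed signal of A_23_P359245 was 13910 and 13342 in the KD1 samples, 12018 and 16401 in the CON samples, and 29671 and 19490 in the WT samples. Both WT samples were above all KD1 and CON samples by these means. Single channels of WT replicate 2, at 16401 to 26392, overlapped those of CON replicate 2, at 15094 to 17644.

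In KD1 vs WT, MET A_23_P359245 was -1.05 and -0.999 in replicate 1 and -0.74 and -0.43 in replicate 2, below 0 on 4 of 4 arrays. Its mean was -0.80 ± 0.31 (SD, n = 2), with an interval of -1.50 to -0.11 (limma, unadjusted p = 0.0285, adjusted p = 0.229). In KD1 vs CON it was 0.27 and 0.24 in replicate 1 and -0.48 and -0.50 in replicate 2, with a mean of -0.12 ± 0.53 (SD, n = 2; limma, adjusted p = 0.895). In WT vs CON it was 1.29 and 1.25 in replicate 1 and 0.12 and 0.08 in replicate 2, with a mean of 0.69 ± 0.83 (SD, n = 2; limma, adjusted p = 0.305). WT exceeded CON in both replicates, by different amounts. Through KD1 the WT vs CON values were 1.28 and 0.09.

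The dimmer MET probes gave the same order of cultures. In KD1 vs WT, A_23_P145844 had a mean of -0.59 ± 0.05 (SD, n = 2; limma, adjusted p = 0.230) and A_23_P145846 a mean of -0.63 ± 0.10 (SD, n = 2; limma, adjusted p = 0.221). Each was spotted once, and the dye swaps of replicate 2 differed in sign. They were -1.58 and 0.34 for A_23_P145844 and -1.44 and 0.05 for A_23_P145846, and no single array lay outside these values. In WT vs CON their means were 0.59 and 0.57, and in KD1 vs CON -0.14 and -0.19. As with the brightest probe, replicate 1 of KD1 vs CON was above 0 and replicate 2 below 0.

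No ligand difference passed the test where one could be made. HGF passed the signal filter only for WT vs CON, and CXCL12 did not pass it for KD1 vs CON. CXCL12 A_23_P202448 had mean signals of 36.1 and 37.4 in KD1, 45.2 and 26.1 in CON and 39.3 and 34.9 in WT. Its log2 ratio was -0.04 ± 0.17 in KD1 vs WT (SD, n = 2; limma, adjusted p = 0.955), with an interval of -0.59 to 0.51, and -0.00 ± 0.41 in WT vs CON (SD, n = 2; limma, adjusted p = 0.996). HGF A_23_P93780 had mean signals of 33.9 and 23.4 in KD1, 30.5 and 24.9 in CON and 30.4 and 24.4 in WT. Its log2 ratio in WT vs CON was -0.15 ± 0.16 (SD, n = 2; limma, adjusted p = 0.771), with an interval of -0.62 to 0.32. In KD1 vs WT, which was not tested for HGF, its log2 ratio was 0.297 and 0.293 in the replicates, with single arrays from -0.11 to 0.70. At these signals the dye swaps of HGF differed by up to 0.81 on the log2 scale, more than its replicates.

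Across the members, 0 of 4 tested probes were called in KD1 vs CON by limma with an adjusted p under 0.05, where 1.79% of all 21937 tested probes were called. In KD1 vs WT 0 of 5 were called, beside 1.05% of 24884, and in WT vs CON 0 of 6, beside 1.37% of 26595. At an unadjusted p under 0.05 the KD1 vs CON count was 0, the KD1 vs WT count 3, all of them MET, and the WT vs CON count 2, again MET, beside 17.2%, 17.2% and 16.5% of all tested probes. A probe was tested where its signal in at least 1 channel passed the 99th percentile of the negative controls on every array of the comparison, which all MET probes and CXCR4 did in each.

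The knockdown target and the muscle markers were read on the same arrays. In KD1 vs CON the 3 PAX3 probes had means of -0.42 to -0.09 and the 2 FOXO1 probes means of -0.42 and -0.39. In KD1 vs WT these were -0.39 to 0.06, and -0.60 and -0.30. No adjusted p was under 0.05. Of the 8 KD1 arrays, 5, 8 and 8 were below 0 for PAX3, and 8 and 7 for FOXO1. Of probes above the negative controls, 8.36% were below 0 on all 8. Such probes can also read transcripts that are not fused. The study itself reported lower PAX3-FKHR mRNA and protein in KD1 than in CON. All 7 skeletal muscle markers, among them the myogenic factor MYOD1 and the intermediate filament DES, were well above background in all samples, but their levels differed between the cultures. The myogenic factor MYF5 had mean signals of 9641 and 8071 in WT, 2591 and 3422 in CON and 3354 and 1561 in KD1, so that, as for MET, both WT samples stood above the rest. Its log2 ratio in KD1 vs WT was -1.92 (limma, adjusted p = 0.0689). MYOG, which drives differentiation, fell by 1.73 in WT vs CON (limma, adjusted p = 0.0185), the only marker called in any comparison. MYH3, an embryonic myosin, was at 5966 in KD1 replicate 2 and at 940 in replicate 1. Of markers of other cell types, the leukocyte gene PTPRC never rose well above background. The epithelial gene EPCAM did so only in WT replicate 2, on 4 of 4 arrays at a mean signal of 170.3. The epithelial genes CDH1 and KRT5 and the leukocyte gene LYZ also did so only there, on 2, 1 and 2 of 4 arrays. The mean CXCR4 signal was 12877 in WT replicate 2 and 30935 in WT replicate 1. Other such markers were well above background on all arrays of every sample. They were CD3E and CD14 (leukocyte), KRT8 and KRT18 (epithelial), and PECAM1 and VWF (endothelial). Mean signals were 115 to 172 for CD14, 639 to 1636.5 for KRT18 and 653 to 1078 for PECAM1. The summed signal of the 5 leukocyte markers was 206 to 258 across the 6 RNA samples, that of the 5 epithelial markers 1537 to 2963, and that of the 4 endothelial markers 778 in WT replicate 1 to 1886 in KD1 replicate 2. Of the latter, VWF was at 694 in KD1 replicate 2, at 112 in KD1 replicate 1 and at 52.1 to 75.8 in the WT and CON samples, with a log2 ratio of 2.22 in KD1 vs WT (limma, adjusted p = 0.109). The part of all these markers in the CXCR4 and MET values was not tested.

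Around the receptors, 177 genes of their pathways were measured, of which 105 had a tested probe for KD1 vs CON, 117 for KD1 vs WT and 126 for WT vs CON. Against CON, KD1 had 3 that fell and 3 that rose, or 5.71% of those tested, beside 1.79% of all tested probes. Against WT it had 1 that fell and 1 that rose (1.71%, beside 1.05%), and WT against CON had 1 that fell and 2 that rose (2.38%, beside 1.37%). The lists were chosen with earlier results of these data known. Each listed gene was read by its brightest probe, whereas the shares beside them are over all probes. These shares are therefore no measure of enrichment. The median log2 ratio of the listed genes was 0.03, -0.00 and 0.01, beside -0.01, 0.01 and -0.03 over all tested probes.

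On the CXCL12 side, CXCR7, the other receptor that binds and takes up CXCL12, fell by 2.32 in KD1 vs CON (limma, adjusted p = 0.00538), with replicates of -1.92 and -2.72, and was below 0 on 8 of 8 KD1 arrays. It was also lower in WT than in CON, by a log2 ratio of -1.68 (limma, adjusted p = 0.0286), and its KD1 vs WT value was -0.67 (limma, adjusted p = 0.228). MME, a membrane peptidase, rose by 1.58 in KD1 vs CON (limma, adjusted p = 0.0251). ELMO1, which links G protein signals to Rac in migrating cells, fell by 1.24 in the same comparison (limma, adjusted p = 0.0271). None of 15 tested genes for receptor desensitization and trafficking was called in any comparison, and at shares of 1.05% to 1.79% over all probes a list of this size may hold no call.

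Among other chemokines, CCL2, which attracts monocytes, fell in KD1 against both cultures, by 2.36 vs CON (limma, adjusted p = 0.00305) and by 1.67 vs WT (limma, adjusted p = 0.0218), on 8 of 8 arrays. CX3CL1, a membrane-bound chemokine, rose by 1.67 in KD1 vs CON (limma, adjusted p = 0.0417) and was near equal in KD1 and WT, at -0.02. The chemokine receptor CCR7 was higher in WT than in CON by 1.58 (limma, adjusted p = 0.0279). Only 2 of 21 other chemokine receptors could be tested in KD1 vs CON.

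On the MET side, 0 of 4 genes of HGF activation and its inhibitors, 0 of 23 adaptors and effectors and 0 of 11 negative regulators were called in KD1 vs CON, and at 1.79% over all probes these counts show nothing particular about the groups. NRP1, a co-receptor of semaphorins and growth factors, was higher in WT than in CON by 1.40 (limma, adjusted p = 0.0448). The related receptors and co-receptors of MET had a median of -0.51 in KD1 vs WT, and 6 of 9 were lower in both replicates, beside 27.6% of all tested probes, with none called. Their median was -0.02 in KD1 vs CON, where 2 of 7 were lower and 3 higher in both replicates. The share of all probes was not computed for those counts. In WT vs CON their median was 0.60, and 6 of 10 were higher in both replicates, beside 27.5% of all tested probes. The KD1 vs WT and WT vs CON values share the WT samples and so are not independent. The phosphatase PTPRJ had the lowest log2 ratio computed for a listed gene in KD1 vs WT, but in KD1 replicate 1 it was not well above background on any of 4 arrays, so its size and rank there are not resolved. In replicate 2, where it was well above background, it was -1.64 (limma over both replicates, adjusted p = 0.0968). Of 10 transcription regulators of MET or CXCR4, the melanocyte factor MITF rose in KD1, by 1.26 vs CON (limma, adjusted p = 0.0338) and by 1.28 vs WT (limma, adjusted p = 0.0476). None of the 6 tested genes of migrating limb muscle precursors was called in either KD1 comparison. At 1.79% (KD1 vs CON) and 1.05% (KD1 vs WT) over all probes, a list of this size may hold no call.

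Of these 11 calls, those of CXCR7 and CCL2 in KD1 vs CON held under all 8 other settings of processing and model, and none held once 1 replicate of its comparison was left out.

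**Figure D4:**
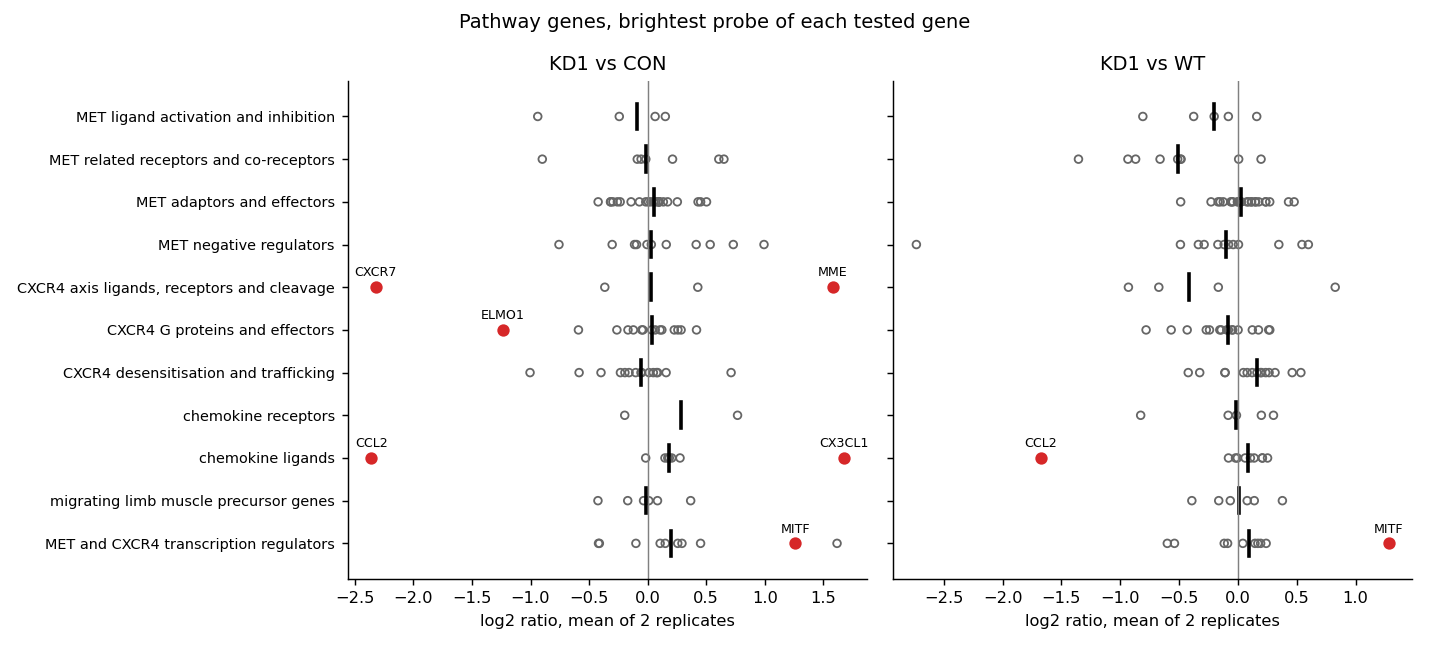
Mean log2 ratio of the 2 replicates for each tested gene of 11 pathway lists, KD1 vs CON at left and KD1 vs WT at right. Filled circles passed an adjusted p of 0.05 and are named, open circles did not, and vertical bars are list medians; CCL2 and CXCR7 were the lowest called genes in KD1 vs CON.

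The genes with profiles nearest to the receptors were found by the root mean square difference over the 6 replicate log2 ratios, among 12256 named genes tested in all comparisons. For MET they were TOP2A, a topoisomerase of dividing cells (0.11), IQGAP1, a scaffold protein (0.12), and SMPDL3A (0.14). For CXCR4 they were GPC3, a membrane proteoglycan (0.28), LEFTY1, a secreted inhibitor of Nodal signaling (0.37), and SLC29A3, a nucleoside transporter (0.45). GPC3 was 1.72 in replicate 1 and -1.48 in replicate 2 of WT vs CON, and LEFTY1 1.65 and -1.44. These values were part of the measure that picked the genes, and the 6 values share RNA samples and are not independent.

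Tested genes around the receptors on the chromosome had median ratios near 0. The 20 nearest spanned 8904 kb for MET and 13475.5 kb for CXCR4. The 20 nearest tested genes of MET had a median of 0.15 in KD1 vs WT, where MET was -0.80, and 8 of the 20 were below 0. Those of CXCR4 had a median of -0.08 in KD1 vs CON, where CXCR4 was -1.29, and of 0.02 in KD1 vs WT, where it was -1.03. The adjacent gene CAV1, a component of caveolae, was -0.13 in KD1 vs WT beside MET, and DARS, an aminoacyl tRNA synthetase beside CXCR4, was -0.12 in KD1 vs CON. Of the 20 genes near CXCR4, 1 was called in KD1 vs CON, HNMT at 5.89, and of those near HGF 1, SEMA3D at 3.69. None near MET or CXCL12 was called there, beside 1.79% of all tested probes. HNMT and SEMA3D were singled out after their values were seen. HNMT was also called in KD1 vs WT, at 1.55 (limma, adjusted p = 0.0439), and in WT vs CON, at 4.02 (limma, adjusted p = 0.00121). SEMA3D was -0.09 in KD1 vs WT (limma, adjusted p = 0.943) and 3.73 in WT vs CON (limma, adjusted p = 0.00895), so that CON stood apart from both other cultures. Next to HGF lay SEMA3C, at -0.40 in KD1 vs CON, and next to CXCL12 lay ZNF32 and RASSF4, at -0.32 and -0.34.

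**Figure D5:**
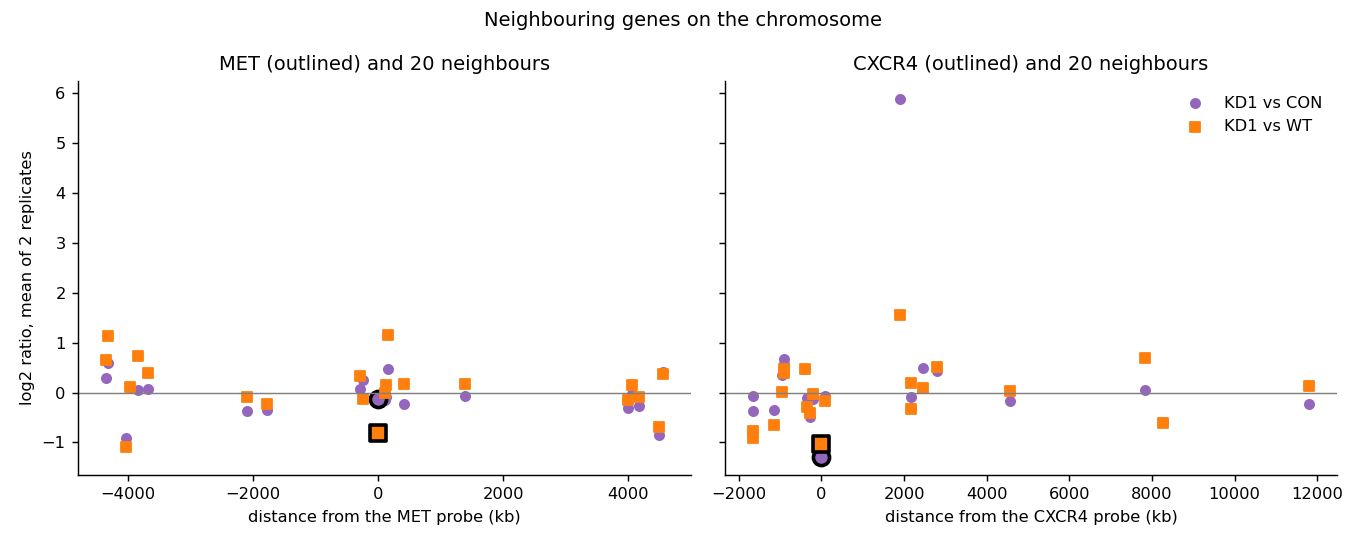
Mean log2 ratio of the 20 nearest tested genes around MET and CXCR4 against distance from the member's probe (kb). Circles are KD1 vs CON and squares KD1 vs WT, with the member outlined at 0; the point at 5.89 is HNMT.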

How the data were processed

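RNA from WT, CON and KD1 was labeled (500 ng) and hybridized to 12 two-color Agilent arrays. The authors extracted them with Agilent Feature Extraction 10.5.1.1 and deposited spot intensity on a linear scale (mean, background-subtracted and processed after lowess) and a log10 ratio of red over green. They also deposited a series table of log2 ratios, already turned to the first culture, with 0 columns unmatched. Here log2 ratios were computed from the processed intensity values, turned by the labeled dyes, averaged over spots without outlier flags (95 to 188 per array) and over the dye swap. The lowest correlation between arrays of one dye orientation was -0.56, between comparisons that can oppose each other. Arrays were on 3 slides: the WT vs CON arrays on one, and the KD1 arrays of each replicate on another, so slide and replicate cannot be told apart in the KD1 comparisons. The number of arrays limits the precision.

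Tests used limma 3.58.1 in R 4.3.3 (lmFit, eBayes; 6 replicate values, 1 coefficient per comparison; because the 3 comparisons of a replicate share RNA samples, 2 residual degrees of freedom were imposed instead of 3), two-sided, with Benjamini-Hochberg adjustment over all tested probes and a threshold of 0.05. In tests on simulated data the mean change was recovered. With moderated variances false calls exceeded the nominal rate, and with the variance of each probe only part of the changed probes was called, so adjusted p-values near the threshold are approximate. A gene in a list was read by its brightest probe. Named genes were all list genes called in any comparison, the highest and lowest in each KD1 comparison, the 3 nearest profiles of each receptor, the adjacent tested genes, PAX3 and FOXO1. Neighbors without a gene symbol were not named. Of 19229 RefSeq accessions, 18606 matched a GRCh38.p14 gene table, used for names only. The members and lists were chosen with earlier results of these data known. Python 3.11.15, numpy 2.4.6, pandas 2.3.3 and matplotlib 3.10.9 were used. Alternatives covered background correction (normexp, offset 50), centering, the series table, filters, replicate block, dye and slide terms, and replicates left out.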

Additional observations from a re-analysis of the deposited data

How the results depend on the processing

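No member probe was called in any of 11 fits per comparison, and the lowest adjusted p of a member was 0.147, for MET in KD1 vs WT. CXCR4 stayed below 0 in both KD1 comparisons and MET below 0 in KD1 vs WT in every fit. Of 150 member values from 10 other fits per comparison, 139 kept their direction and 11 changed it, all of them MET in KD1 vs CON, CXCR4 in WT vs CON or CXCL12. Leaving out one replicate put MET A_23_P359245 in KD1 vs CON between -0.49 and 0.26, A_23_P145844 between -0.42 and 0.14, A_23_P145846 between -0.50 and 0.12, CXCR4 in WT vs CON between -1.71 and 1.24, and CXCL12 between -0.16 and 0.084 in KD1 vs WT and between -0.29 and 0.29 in WT vs CON. CXCL12 in WT vs CON was 0.094 with arrays centered on the median, 0.0083 in the series table, 0.0085 with the replicate block and 0.0081 without it, and in KD1 vs WT 0.023 without it. The causes were not tested.

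Counts of called probes, in the order KD1 vs CON, KD1 vs WT and WT vs CON, were 393, 261 and 365. They were 26, 1 and 2 with normexp and loess, 1013, 1018 and 1093 with a dye term per slide over 12 arrays, and 254, 183 and 200 without a filter, and WT vs CON had 221 with median centering. Listed genes called, 6, 2 and 3, became 2, 0 and 0, then 10, 5 and 9, then 2, 1 and 0 under normexp, the dye term and no filter. With the replicate block on fitted RNA levels, 161, 107 and 131 probes and 2, 0 and 0 listed genes were called, and with no replicate block, on separate channels, 201, 126 and 114 probes and 3, 0 and 0 listed genes. The deviations of same-numbered samples correlated at 0.54 (CON and KD1), -0.02 (CON and WT) and -0.07 (KD1 and WT), so the numbers did not pair all cultures. Leaving out one replicate of a comparison left 9 to 16, 38 to 59 and 0 to 1 called probes, and 0 listed genes in each (limma; 1432 to 2163, 3740 to 3942 and 2500 to 3551 probes at an unadjusted p of 0.05). The lone replicate is then assumed to vary like the other comparisons.

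Genes lower by the rule modeled on the methods were 159, 249 with the negative control limit met on a single array, and 216 to 263 without one replicate. The highest over the lowest MET signal was 2.47, and 1.95 on mean signals with neither background subtraction nor dye normalization. HGF and CXCL12 are limited by signals near background.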
